A study of Mus musculus with 10 samples.

Results

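Complement and coagulation factors are the plasma proteases, cofactors, pore-forming proteins and clot proteins that act against microbes and stop bleeding. The group was set by a list of 45 genes, and a gene was measured where a probe set of the array carried its symbol and no other. This held for 41 genes of the 19933 tested in all, with C1s found as C1s1, the current symbol of that gene in a RefSeq table. Klkb1, the gene of plasma prekallikrein, had only a probe set shared with Cyp4v3, and C3, Cfd and Cpb2 were not analysed here. The levels compared are those of livers from 5 knockout mice (KO, genotype Nr1d1-/-, without the clock repressor Rev-erb alpha) and 5 wild-type mice (WT). All mice were C57Bl/6 males aged 10 to 12 weeks on normal chow, kept in cycles of 12 h light and 12 h dark, and killed 10 h after lights came on (ZT10). The WT mice came from a vendor, and the KO line had been crossed back to C57Bl/6 over 7 or more generations, so genotype and origin cannot be told apart. Each mouse gave 1 liver RNA and 1 Affymetrix Mouse Gene 1.0 ST array.

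Most plasma complement and clotting factors are made by hepatocytes. Complement is started by antibody-bound C1q (classical pathway), by mannose-binding lectins on sugars (lectin pathway) or by factors B, D and properdin on a surface (alternative pathway). The routes meet at C3, and the terminal components then build the membrane attack complex, a pore in the target membrane. Coagulation runs through tissue factor and factor VII or through the contact factors to thrombin, which turns fibrinogen into fibrin, and protein C, protein S and plasmin limit the clot.

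The deposited values were normalized intensities, taken to log2 here, and every level of a gene below is a log2 intensity of 1 probe set. Levels of a marker list, and of the C1q chains together, are means over their genes. The hepatocyte markers averaged between 13.61 and 13.68 in KO livers and between 13.66 and 13.71 in WT livers, with 0 of 10 passing the limma test described below and 0 at an unadjusted p under 0.05. The only Nr1d1 probe set was not lower, at 9.92 ± 0.45 in KO and 9.78 ± 0.16 in WT (SD, n = 5 each, limma adjusted p = 0.803). Whether it lies in the deleted part is not stated in the sources used here. Arntl, a clock gene that Rev-erb alpha represses, averaged 9.43 ± 0.29 in KO and 7.30 ± 0.24 in WT. KO replicates 4 and 5 and WT replicate 1 had the widest interquartile ranges of the arrays, at 2.96, 2.99 and 2.98, against 2.80 to 2.94 in the other arrays. Mean levels of the measured members ran between 7.27 and 13.68, above the lower quartile of every array, which was at most 6.11. Several members lie close to the highest intensity on an array, 14.09 to 14.16, and whether their differences are compressed there was not tested.

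Of the 41 measured members, 5 passed the test: C6, C8a, C8b and Cfb were lower in KO livers and Mbl1 was higher. A gene passed where its limma p, adjusted by Benjamini and Hochberg over the 19933 genes, was under 0.05. The 5 are 12.2% of the measured members, against 5.61% of all genes. Members lie at high levels, where more genes passed: when the 9966 genes above the median level were fitted alone, 12.8% of them passed, and 7 of the 40 members among them (17.5%). Lower members were 4 of 41 against 2.44% of all genes, and higher members 1 of 41 against 3.17%. In the fit of genes above the median level, lower members were 5 of 40 against 572 of 9966 genes. Higher members there were 2 of 40 against 699 of 9966. KO and WT arrays did not overlap in 6 members, the 5 named and F10, against 7.00% of all genes and 12.1% of those above the median level. The median difference of the members, KO minus WT, was -0.03, beside 0.01 over all genes tested. The 20 measured complement genes held all 5 changes, and 0 of the 21 coagulation and fibrinolysis genes passed the test. Of those 21, 4 had an unadjusted limma p under 0.05, beside 3461 of all 19933 genes. The members that did not pass had differences of at most 0.32 in size. The median SD of the members within a genotype was 0.069 in KO and 0.071 in WT, beside 0.098 and 0.095 over all genes.

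**Figure D1:**
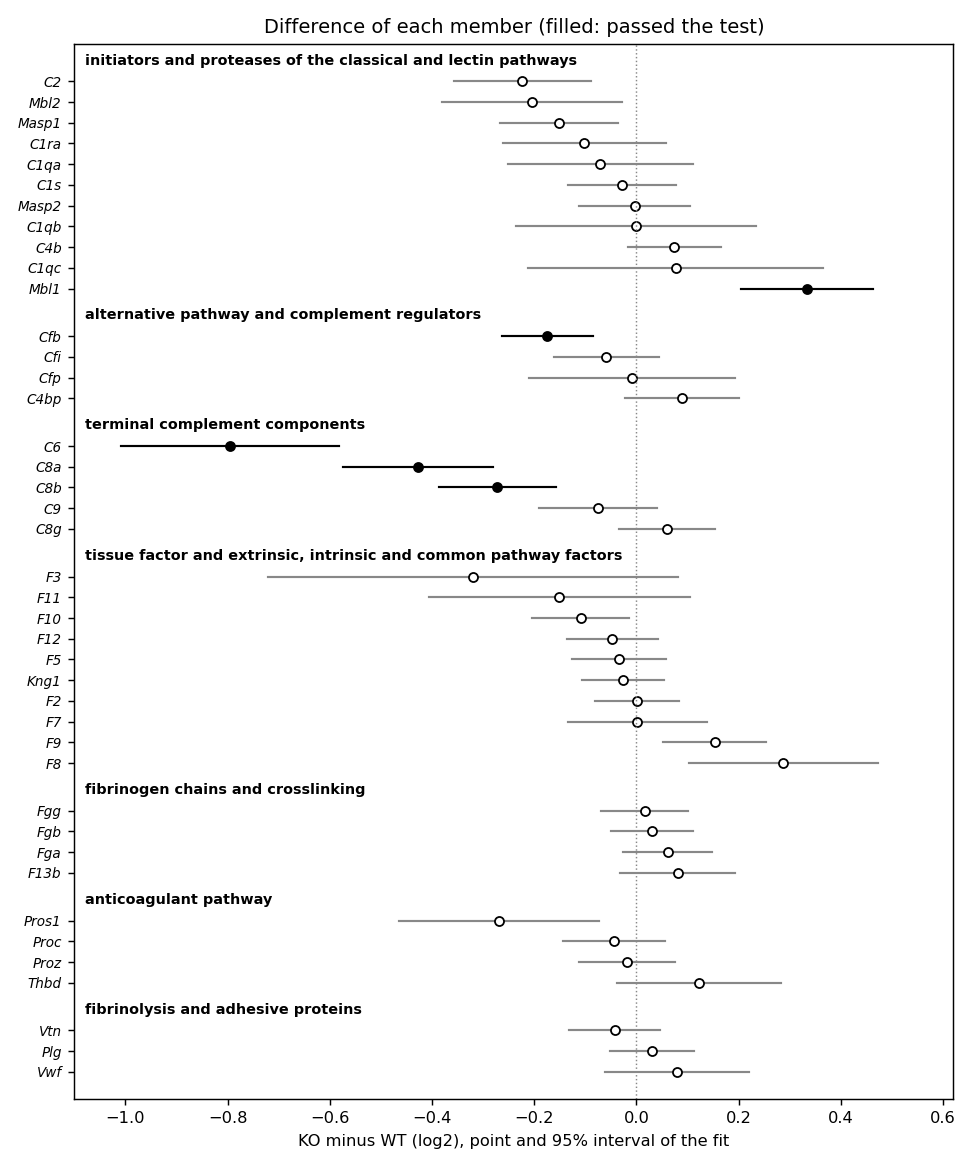
Difference of each of the 41 measured members, KO minus WT on the log2 scale, ordered by role. Points are limma estimates with 95% intervals, filled where the adjusted p is under 0.05. The filled points of C6, C8a and C8b lie between -0.79 and -0.27, that of Mbl1 at 0.33, and every fibrinogen chain lies within 0.07 of 0.

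Of the 5 member genes of terminal complement components, 3 passed the test, all lower in KO livers. The median difference of the 5 was -0.27. Over all genes 5.61% passed in the same fit. Of the genes above the median level 12.8% passed, but in a separate fit of those genes alone. Hc (complement C5) and C7, terminal component genes outside the member list, had differences of -0.15 and -0.02 and did not pass. The promoters of C6, C8a, C8b and Mbl1 are shown because these are the members that passed and have an entry in the promoter table used here. They are RefSeq sequences of GRCm38.p6, 250 bases before to 50 bases after the start of the gene, 5′ to 3′ on its own strand. C6 is at chr15:4726960-4727259 on the plus strand, C8a at chr4:104876349-104876648 on the minus strand, C8b at chr4:104766067-104766366 on the plus strand and Mbl1 at chr14:41151206-41151505 on the plus strand. Capitals mark AGGTCA, the core element bound by many nuclear receptors, together with the T before it where the sequence reads TAGGTCA, as Rev-erb and ROR receptors prefer it.
C6: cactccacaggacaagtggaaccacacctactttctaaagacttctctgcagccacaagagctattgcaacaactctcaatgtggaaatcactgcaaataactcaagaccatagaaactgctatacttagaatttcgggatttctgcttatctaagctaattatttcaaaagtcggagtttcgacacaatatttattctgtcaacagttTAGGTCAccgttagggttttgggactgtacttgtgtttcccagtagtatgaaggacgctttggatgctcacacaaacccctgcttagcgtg
C8a: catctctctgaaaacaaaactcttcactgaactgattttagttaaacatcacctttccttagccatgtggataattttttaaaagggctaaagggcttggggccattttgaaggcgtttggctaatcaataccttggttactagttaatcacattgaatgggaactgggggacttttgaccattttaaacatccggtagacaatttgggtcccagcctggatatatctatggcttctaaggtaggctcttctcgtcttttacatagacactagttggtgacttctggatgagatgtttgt
C8b: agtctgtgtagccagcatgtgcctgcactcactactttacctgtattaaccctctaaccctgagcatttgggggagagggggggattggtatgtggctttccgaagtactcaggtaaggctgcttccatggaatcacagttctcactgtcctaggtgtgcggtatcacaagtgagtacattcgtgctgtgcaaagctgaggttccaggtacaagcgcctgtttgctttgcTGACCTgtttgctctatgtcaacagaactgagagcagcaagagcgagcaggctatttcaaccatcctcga
Mbl1: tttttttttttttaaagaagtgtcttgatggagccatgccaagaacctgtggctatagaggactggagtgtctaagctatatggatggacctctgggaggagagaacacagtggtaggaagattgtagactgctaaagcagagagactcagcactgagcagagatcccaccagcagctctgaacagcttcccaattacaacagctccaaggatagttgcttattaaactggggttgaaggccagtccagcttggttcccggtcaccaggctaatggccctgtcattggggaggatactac

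The C6 promoter holds TAGGTCA on the plus strand, from base -41 to base -35 before the gene's start. The C8b promoter holds the core AGGTCA on the minus strand, from base -20 to base -15, printed as its reverse complement. The windows of C8a and Mbl1 hold neither. TAGGTCA, which contains AGGTCA, was found on either strand in 2.61% of all 32851 promoters of the same length and AGGTCA in 16.3%. Among the 30 members with a promoter in the table, TAGGTCA was found for C6 and C1qc and AGGTCA for 11. These members have 32 promoters, of which 2 hold TAGGTCA and 11 hold AGGTCA. The D-box TTANGTAA was found for F13b alone among them, against 2.32% of all promoters. CACGTG (E-box, 7.15% of all promoters) and CAAAGTCCA (HNF4 site, 0.475%), also searched on both strands, were found for 0 members. A match is only a match of letters.

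C6 encodes the component that binds first to C5b and starts pore assembly. It read 11.82, 11.38, 11.63, 11.57 and 11.96 in the KO livers, and 12.47, 12.66, 12.44, 12.41 and 12.35 in the WT livers. The lowest WT liver lay above the highest KO liver. C6 averaged 11.67 ± 0.22 in KO and 12.46 ± 0.12 in WT (SD, n = 5 each), a fall by 0.79 with an SE of 0.098 (limma adjusted p = 0.000477). The KO level was 57.6% of the WT level on the linear scale, the largest change of any measured member. C6 passed in all 19 alternative settings, with adjusted p at most 0.00505.

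C8a and C8b encode the alpha and beta chains of complement C8, which anchors the growing pore in the membrane. C8a read 12.12, 11.82, 12.12, 11.90 and 12.01 in KO, and 12.28, 12.50, 12.44, 12.46 and 12.42 in WT. C8b read 12.97, 12.75, 12.95, 12.79 and 12.85 in KO, and 13.11, 13.21, 13.13, 13.11 and 13.11 in WT. For neither gene did the genotypes overlap, and KO replicates 2 and 4 were the lowest for both. C8a fell by 0.43 (SE 0.067, limma adjusted p = 0.00254) to 74.3% of the WT level. C8b fell by 0.27 (SE 0.052, limma adjusted p = 0.00864) to 82.8% of the WT level. Without the 3 arrays of widest interquartile range the call of C8b was lost, at a difference of -0.25 and adjusted p = 0.0936.

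**Figure D2:**
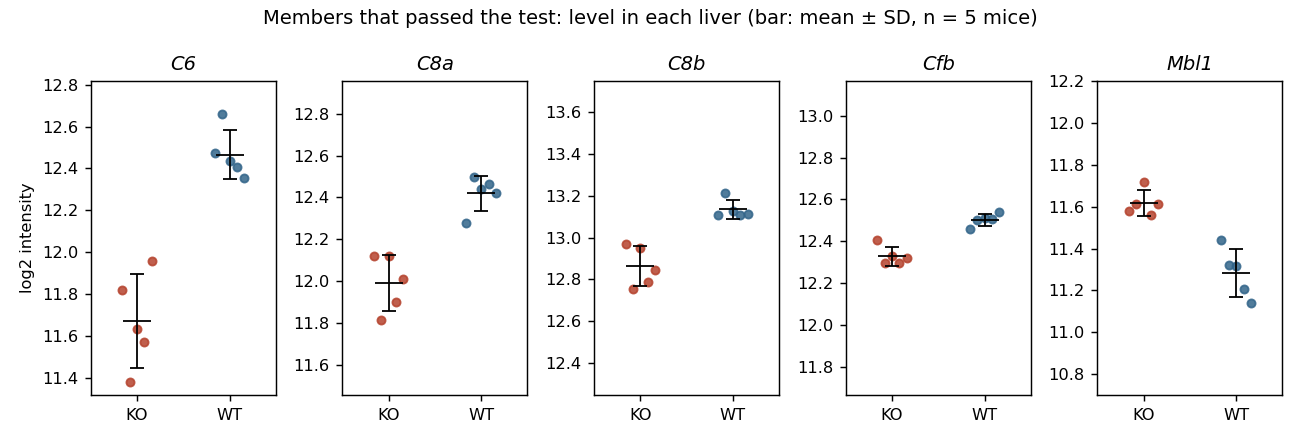
Log2 intensity of C6, C8a, C8b, Cfb and Mbl1 in each liver, 1 point per mouse, with bars for the mean and SD of 5 mice. Every panel spans the same height on the log2 scale. The KO points lie below all WT points for the leftmost 4 genes and above them for Mbl1.

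C8g, the gene of the gamma chain, a lipocalin that is joined to the alpha chain, did not pass. It averaged 12.96 ± 0.042 in KO and 12.89 ± 0.052 in WT (SD, n = 5 each), a difference of 0.06 with a 95% interval of -0.03 to 0.15 (limma adjusted p = 0.575). C9, whose protein forms the wall of the pore, averaged 12.74 ± 0.080 in KO and 12.82 ± 0.073 in WT, a difference of -0.07 with a 95% interval of -0.19 to 0.04 (limma adjusted p = 0.568). Whether genes of the terminal pathway differed unequally was tested on ratios within each array.

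Ratios of related genes were tested with an exact permutation test, two-sided, over all 252 ways to assign the arrays, for 6 pairs picked after their values were seen, so the p-values restate differences already observed and are no independent evidence. The C8a over C8g ratio was lower in KO by 0.49 on the log2 scale, and C8b over C8g by 0.33. The C8a over C8b ratio was also lower, by 0.16, but the genotypes only just failed to overlap, at -0.8301 in the highest KO liver and -0.8293 in the lowest WT liver. C6 over C9 was lower by 0.72. Each of these reached the smallest possible p, 0.00794 (exact permutation test, 0.00952 adjusted over the 6 pairs), with no overlap between the 5 KO and 5 WT livers. A ratio shows unequal change and not which gene was constant. Left out 1 array at a time, the differences of these 4 ratios stayed between -0.77 and -0.14, with adjusted p at most 0.0190.

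**Figure D3:**
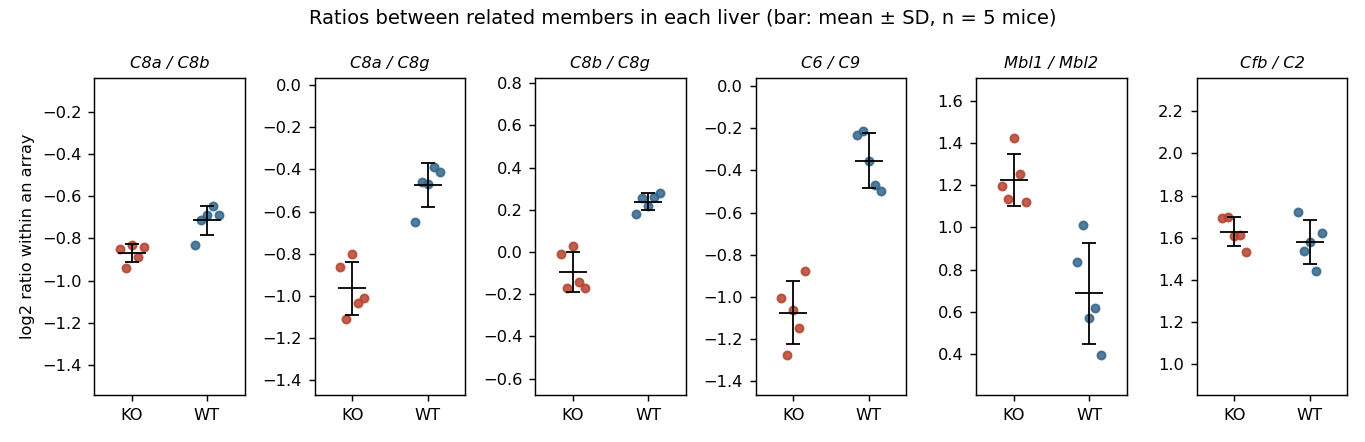
Log2 ratio of pairs of related members within each array, 1 point per mouse, with the mean and SD of 5 mice. KO and WT livers overlap only in Cfb over C2 and almost touch in C8a over C8b. For Cfb over C2 the KO mean is 1.63 and the WT mean 1.58.

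C8b and C8a follow each other on chromosome 4 among the protein-coding genes of the RefSeq table. Their outer neighbours did not pass, Dab1 at 0.01 before C8b and Fyb2 at -0.11 after C8a (limma adjusted p = 0.961 and 0.745). Next after Fyb2, Prkaa2, the gene of a catalytic subunit of AMP-activated kinase, fell by 0.32 (limma adjusted p = 0.0150). C6 lies on chromosome 15 between Plcxd3 at -0.005 and Mroh2b at 0.03. C7, the terminal component gene next after Mroh2b, had a difference of -0.02 (limma adjusted p = 0.966). Prkaa2 averaged 10.99 in KO and 11.31 in WT. The other neighbours named here were dim or near the array medians of 7.28 to 7.37. Dab1 averaged 6.24 in KO and 6.23 in WT, Plcxd3 5.79 in both, and Mroh2b 6.62 and 6.59. C7 averaged 7.26 in KO and 7.28 in WT, and Fyb2 7.34 and 7.46. With no detection calls, whether Dab1, Plcxd3, Mroh2b, C7 and Fyb2 were expressed is unknown.

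Among the genes that start the classical and lectin pathways, Mbl1 rose and the other 10 did not pass. That is 9.09% passing, against 5.61% of all genes. Mbl1 encodes mannose-binding lectin A, a soluble pattern receptor of the liver. It read 11.58, 11.62, 11.72, 11.56 and 11.61 in KO, and 11.44, 11.32, 11.31, 11.20 and 11.14 in WT. All KO livers were above all WT livers. The difference was 0.33 with an SE of 0.059 (limma adjusted p = 0.00531), so the KO level was 126% of the WT level, and it passed in all 19 alternative settings.

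Mbl2, the gene of mannose-binding lectin C, had a negative difference that did not pass. It read 10.39, 10.48, 10.30, 10.31 and 10.49 in KO, and 10.60, 10.31, 10.74, 10.59 and 10.74 in WT, where replicate 2 lay among the KO livers. The difference was -0.20 (SE 0.081, limma adjusted p = 0.20). Without WT replicate 2 it was -0.28 and passed, with adjusted p = 0.0278. In the other 18 alternative settings Mbl2 did not pass. The Mbl1 over Mbl2 ratio was higher in KO by 0.54 on the log2 scale, at 1.23 ± 0.12 in KO and 0.69 ± 0.24 in WT (SD, n = 5 each, exact permutation p = 0.00794, 0.00952 adjusted over 6 pairs). Without the 3 arrays of widest interquartile range the difference of that ratio was 0.60 and did not pass (adjusted p = 0.0686). The remaining livers still did not overlap, with KO at 1.13 or more and WT at 1.01 or less. Fewer arrays leave fewer assignments, so the permutation test cannot reach p-values as small there.

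The lectin pathway proteases are encoded by Masp1 and Masp2. Masp1 averaged 12.03 ± 0.055 in KO and 12.18 ± 0.093 in WT, a difference of -0.15 (limma adjusted p = 0.138), and Masp2 averaged 12.52 in both genotypes. The classical pathway proteases C1ra and C1s differed by -0.10 and -0.03 and did not pass. A probe set shared by C1ra and C1rb, another C1r gene, averaged 12.00 ± 0.035 in KO and 12.15 ± 0.061 in WT, and did not pass over all probe sets (limma adjusted p = 0.0797).

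C2, the protease of the classical and lectin C3 convertase, came just outside the threshold. It read 10.71, 10.59, 10.72, 10.68 and 10.79 in KO, and 10.74, 10.96, 10.93, 11.06 and 10.91 in WT. The genotypes overlapped only through WT replicate 1, and the difference was -0.22 (SE 0.061, limma adjusted p = 0.0554). Without WT replicate 1 it was -0.27 with adjusted p = 0.0153, and C2 passed in 6 of the 19 alternative settings. C4b, whose protein is the other part of that convertase, averaged 12.72 ± 0.034 in KO and 12.64 ± 0.049 in WT and did not pass (limma adjusted p = 0.422).

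The C1q chains are made by macrophages, in the liver by Kupffer cells, and none of C1qa, C1qb and C1qc passed the test. Their differences were -0.07, -0.001 and 0.08, with limma adjusted p between 0.781 and 0.999. The mean of the 3 chains ran between 9.13 and 9.56 in KO and between 9.13 and 9.69 in WT. Across the 10 livers it followed the mean of 11 Kupffer cell and macrophage markers, with r = 0.953 (permutation p = 1e-05, the smallest that the permutations can give) and rho = 0.976 (permutation p = 2e-05). This relation and that of F8 with endothelial markers were both picked after the values were seen. Adjusted over these 2 relations, the C1q p-values were 2e-05 and 4e-05. Without KO replicate 3 and WT replicate 3, the livers farthest from the median of the markers, r was 0.938. Within 5 KO livers r was 0.928 and within 5 WT livers 0.976, given as descriptions without a test. The macrophage markers averaged 8.63 to 8.97 in KO and 8.75 to 9.23 in WT, with 0 of 11 passing in limma, 0 at an unadjusted p under 0.05, and none below the lower quartile on every array. In whole liver, fewer cells of a type and less RNA per cell cannot be told apart.

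**Figure D4:**
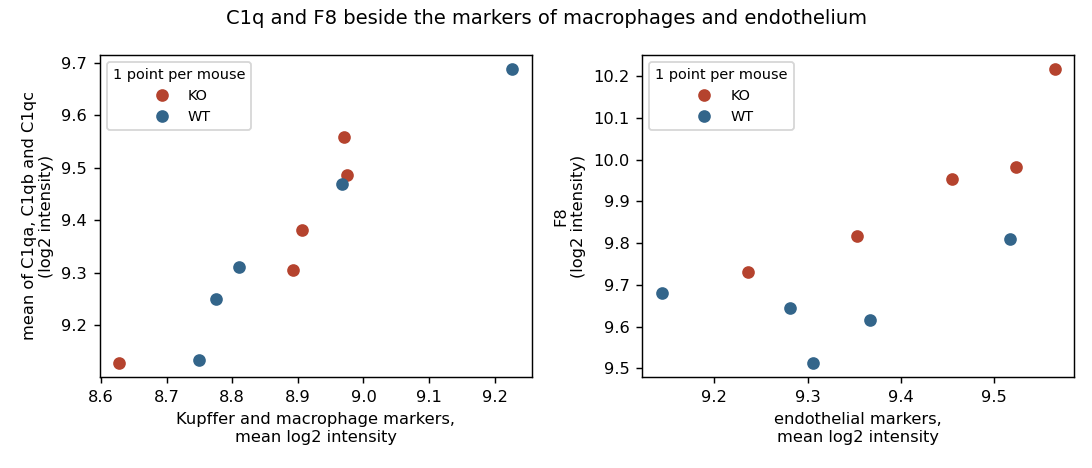
Left, the mean of C1qa, C1qb and C1qc against the mean of 11 Kupffer cell and macrophage markers; right, F8 against the mean of 11 endothelial markers, in log2 intensity with 1 point per mouse. C1q follows the macrophage markers across KO and WT livers alike, while the F8 values run higher in KO livers, 9.73 to 10.22, than in WT livers, 9.51 to 9.81, with some overlap.

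Of the alternative pathway and regulator genes that could be measured, Cfb fell and 3 did not pass. That is 25% passing, against 5.61% of all genes. Cfb encodes factor B, which supplies the protease of the alternative C3 convertase. It read 12.41, 12.29, 12.33, 12.29 and 12.32 in KO, and 12.46, 12.50, 12.51, 12.51 and 12.54 in WT. The groups did not overlap, although KO replicate 1 came within 0.1 of the WT livers. Cfb fell by 0.17 (SE 0.041, limma adjusted p = 0.0266), to 88.6% of the WT level. The call was lost without KO replicate 2, 3, 4 or 5, or without WT replicate 2, 3 or 5, at differences of -0.18 to -0.17 and adjusted p of 0.051 to 0.0694. It was also lost without the 3 arrays of widest interquartile range (adjusted p = 0.126).

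Cfb and C2 are neighbours on chromosome 17, and their ratio did not pass between genotypes (a difference of 0.05 on the log2 scale, 1.63 ± 0.070 in KO and 1.58 ± 0.10 in WT, exact permutation p = 0.437 over 5 KO and 5 WT livers). C4bp, whose protein is a cofactor in the breakdown of C4b, read 12.66, 12.56, 12.64, 12.62 and 12.57 in KO, and 12.50, 12.41, 12.51, 12.66 and 12.52 in WT. These overlapped through WT replicate 4, and the difference of 0.09 did not pass (limma adjusted p = 0.434). Cfi, the gene of the protease factor I, differed by -0.06 and Cfp, the gene of properdin, by -0.01, neither passing.

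None of the 10 measured genes of tissue factor and the clotting cascade passed in limma. F8, F9 and F10 had an unadjusted p under 0.05, as did 3461 of all 19933 genes. Thrombin's gene F2 averaged 13.10 ± 0.020 in KO and 13.10 ± 0.026 in WT, a difference of 0.00 with a 95% interval of -0.08 to 0.08. F5, F7, F12 and Kng1, the genes of factor V, factor VII, factor XII and kininogen, differed by -0.05 to 0.00. Over all 21 coagulation and fibrinolysis genes, 13 had a 95% interval lying wholly within 0.2 of 0 on the log2 scale, against 6 of the 20 complement genes. That bound was chosen after the values were seen, and the share over all genes was not counted. Several of the 13, such as F2, lie close to the highest intensity, where compression was not tested.

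F8 encodes factor VIII, which liver endothelial cells make. It read 9.82, 9.95, 9.73, 9.98 and 10.22 in KO, and 9.81, 9.62, 9.51, 9.68 and 9.64 in WT. KO replicate 3 lay among the WT livers, and the difference of 0.29 (SE 0.085) did not pass (limma adjusted p = 0.0760). It passed without KO replicate 3, at 0.34 and adjusted p = 0.0415, and with quantile normalization, at 0.30 and adjusted p = 0.0271. In the other 17 alternative settings F8 did not pass. The endothelial markers averaged 9.24 to 9.56 in KO and 9.14 to 9.52 in WT, with a median difference of 0.13. In limma 0 of the 11 markers passed and 3 had an unadjusted p under 0.05, beside 3461 of all 19933 genes. None of them lay below the lower quartile on every array. F8 followed the marker mean across the 10 livers with r = 0.744 and rho = 0.685 (permutation p = 0.0129 and 0.0351, the same adjusted over 2 relations). Without KO replicate 5 and WT replicate 4, r was 0.703. The permutations ignored genotype, so these p-values also take in a shift between genotypes. F8 was higher on average in KO, and so was the marker mean, at 9.43 in KO and 9.32 in WT. Within a genotype the F8 relation was uneven, with r = 0.928 in 5 KO livers and 0.455 in 5 WT livers, again given without a test. Their part in the F8 difference was not tested.

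F9 is the gene of factor IX and F10 that of factor X, and neither passed. F9 averaged 11.99 ± 0.071 in KO and 11.83 ± 0.038 in WT, a difference of 0.15 (limma adjusted p = 0.0820). Only KO replicate 2 overlapped the WT livers, and without it the difference was 0.18 with adjusted p = 0.0378. F9 passed in 3 of the 19 alternative settings. F10 read at most 11.307 in KO and at least 11.313 in WT, so the genotypes stood just apart, but its difference of -0.11 did not pass (limma adjusted p = 0.205). F11, the gene of factor XI, averaged 10.36 ± 0.26 in KO and 10.51 ± 0.17 in WT and did not pass (limma adjusted p = 0.620).

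F3, the gene of tissue factor, varied most of all members within KO livers. It read 7.45, 7.36, 8.28, 7.73 and 8.33 in KO, and 8.26, 8.18, 7.91, 8.42 and 7.97 in WT. KO replicates 1, 2 and 4 lay below every WT liver and the other two lay among them. The difference of -0.32 had an SE of 0.18 and a 95% interval of -0.72 to 0.08, and did not pass (limma adjusted p = 0.434).

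The fibrinogen chains, which polymerise into the clot, had levels near the highest intensity of the arrays. Fga, Fgb and Fgg averaged 13.35, 13.55 and 13.68 in KO and 13.29, 13.52 and 13.66 in WT, and none passed (limma adjusted p between 0.514 and 0.913). Fga read 13.33, 13.32, 13.35, 13.38 and 13.39 in KO, and 13.31, 13.26, 13.31, 13.33 and 13.25 in WT, which overlap. The SD of Fgb was 0.0062 in KO and 0.021 in WT. A second, dimmer Fga probe set averaged 9.99 ± 0.22 in KO and 9.65 ± 0.51 in WT and did not pass either (limma adjusted p = 0.490 over all probe sets). F13b, the gene of the carrier subunit of the factor that crosslinks fibrin, read 11.44, 11.50, 11.52, 11.51 and 11.62 in KO, and 11.47, 11.36, 11.34, 11.52 and 11.49 in WT. Its difference of 0.08 did not pass (limma adjusted p = 0.507).

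In the anticoagulant group 0 of 4 passed in limma, and 1, Pros1, had an unadjusted p under 0.05, beside 3461 of all 19933 genes. Pros1, the gene of protein S, the cofactor of activated protein C, read 9.79, 9.64, 9.50, 9.87 and 10.01 in KO, and 9.86, 9.98, 10.11, 10.14 and 10.08 in WT. KO replicates 4 and 5 overlapped WT, and the difference of -0.27 did not pass (SE 0.090, limma adjusted p = 0.118). Without KO replicate 5 it was -0.33 with adjusted p = 0.0444, and without the 3 arrays of widest interquartile range -0.43 with adjusted p = 0.0206. Pros1 passed in 3 of the 19 alternative settings. Thbd, the gene of the endothelial thrombin receptor thrombomodulin, read 7.21, 7.36, 7.40, 7.34 and 7.67 in KO, and 7.35, 7.22, 7.31, 7.25 and 7.24 in WT. The groups overlapped, at a difference of 0.12 (limma adjusted p = 0.464). Proc, the gene of protein C, and Proz, the gene of protein Z, differed by -0.04 and -0.02.

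Plg, the gene of plasminogen, averaged 13.43 ± 0.018 in KO and 13.40 ± 0.027 in WT and did not pass (limma adjusted p = 0.797). Vtn, the gene of the adhesive protein vitronectin, read 13.58, 13.50, 13.59, 13.52 and 13.61 in KO, and 13.59, 13.59, 13.63, 13.59 and 13.61 in WT. Vwf, the gene of von Willebrand factor, which carries factor VIII and binds platelets, read 7.95, 7.99, 8.05, 7.89 and 8.12 in KO, and 7.82, 8.06, 7.997, 7.94 and 7.79 in WT. Both overlapped between genotypes, with differences of -0.04 and 0.08. The probe set shared by Klkb1 and the cytochrome gene Cyp4v3 averaged 12.47 ± 0.066 in KO and 12.50 ± 0.043 in WT, and did not pass over all probe sets (limma adjusted p = 0.877).

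Other genes of the same pathways were taken from a list of 63, of which 55 were measured. Of these 1 rose, 2 fell and 52 did not pass, or 5.45% against 5.61% of all genes. Cd59a, which encodes an inhibitor that stops assembly of the membrane attack complex, was higher in KO by 0.19, at 12.34 ± 0.056 in KO and 12.15 ± 0.068 in WT (SD, n = 5 each, limma adjusted p = 0.0363). Its neighbour and paralog Cd59b averaged 8.97 ± 0.19 in KO and 8.64 ± 0.15 in WT, a difference of 0.33 that did not pass (limma adjusted p = 0.0677), and signal shared between the paralogs cannot be told apart here. Hc, the mouse gene of complement C5, from which the terminal pathway starts, read at most 12.970 in KO and at least 12.998 in WT, but its difference of -0.15 did not pass (limma adjusted p = 0.0898).

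Serpina10 encodes the inhibitor of factor Xa that works with protein Z. It fell by 0.35, averaging 10.96 ± 0.10 in KO and 11.31 ± 0.090 in WT (SD, n = 5 each, limma adjusted p = 0.00456), and passed in all 19 alternative settings. Mcfd2, part of the receptor that exports factors V and VIII from the endoplasmic reticulum, fell by 0.25, averaging 9.75 ± 0.10 in KO and 10.00 ± 0.091 in WT (limma adjusted p = 0.0339). Lman1, the gene of its partner, differed by -0.13 and did not pass (limma adjusted p = 0.207). The call of Cd59a was lost without KO replicate 1, 2, 4 or 5 or WT replicate 1, 2 or 3 (adjusted p up to 0.0936). That of Mcfd2 was lost without KO replicate 2, 3 or 4 or WT replicate 1, 2 or 3 (adjusted p up to 0.0831). Both were lost without the 3 arrays of widest interquartile range, and Cd59a also with arrays centred on their median (adjusted p = 0.0959).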

How the data were processed

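Liver RNA of 5 KO and 5 WT mice was measured on 1-colour arrays, 1 mouse per array. The authors deposited normalized intensities of 27541 probe sets on a linear scale, and the tools given per the submitters' processing notes are RMA and Partek, with no version. Probe sets with 1 gene symbol (21631; 1317 had several and 4593 none) were kept, the one of highest mean per gene, and log2 was taken. KO was compared with WT in limma 3.58.1 (R 4.3.3) with lmFit and eBayes, two-sided, without covariates, over 19933 genes. Differences are KO minus WT. Symbols and gene order follow RefSeq GRCm38.p6. The members and gene lists were chosen with earlier results of these data known. The rule for named genes took members that passed, the 2 largest differences of each role group, the 3 largest SDs per genotype, unmeasured members and listed pathway genes that passed. The other members, to account for each, and some neighbouring and pathway genes were named outside it once the values were known. The fit was tested on simulated data. The table holds no detection calls, the number of arrays limits the precision, and each p-value reflects only how these mice varied.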

Additional observations from a re-analysis of the deposited data

Results flagged for a closer look

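Single livers stood away from the rest of their genotype in 4 of 82 groups of 5 values examined by Dixon's gap test, a number near the 1 in 20 that chance gives. KO replicate 2 was low for F9, at 11.86 against 12.00 to 12.04 in the other KO livers. WT replicate 1 was low for C4b, at 12.56 against 12.65 to 12.68. WT replicate 2 was high for C8b, at 13.21 against 13.11 to 13.13, and WT replicate 4 was high for Plg, at 13.45 against 13.39 to 13.40.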

How the results depend on the processing

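Results were recomputed under 19 alternatives, 10 of which left out 1 array. The members that passed numbered 5 to 7 in the other 9 alternatives and 4 to 6 without 1 array. Genes that passed over the whole table numbered 527 without the 3 arrays of widest interquartile range and 805 to 1248 without 1 array, against 1119. The pathway genes that passed numbered 5 among genes above the median level, 1 without the 3 arrays of widest interquartile range and 1 to 4 without 1 array, against 3. Against 1 higher and 4 lower members, quantile normalization gave 2 and 4, the genes above the median level and trend with robust fitting each 2 and 5, array weights 1 and 6, and leaving out KO replicate 2 or 3 each 2 and 3. C6, C8a, Mbl1 and Serpina10 passed in all 19. F9 also passed among genes above the median level (adjusted p = 0.0436) and with trend and robust fitting (0.0374), and Pros1 with array weights (0.0419). No paired analysis was possible because the labels give no replicate numbers shared between genotypes. With no detection calls, signal over background is unknown.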
